A study of Mus musculus with 36 samples.

Results

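The Ifit gene cluster of mouse chromosome 19 was followed at the level of chromatin accessibility through 33 peaks, out of 119751 in the deposited count table. A peak was taken as a member when it overlapped the body of Ifit1, Ifit2 or Ifit3 or the 20 kb to either side of one of them, with positions in the mm10 build. The rule uses positions only. The members were numbered 1 to 33 in chromosomal order and span chr19:34530750-34666374. The assay was ATAC-seq, whose transposase places sequencing adapters preferentially where DNA is accessible, so that open sites collect more reads. The cells were dendritic cells grown in GM-CSF from the bone marrow of female mice of the C57BL/6J strain, aged 6 to 8 weeks, and were exposed to ligands of pattern recognition receptors for 6 h. Each ligand is named by a letter, with S for SeV, cG for 3',3'-cGAMP, Z for depleted zymosan, L for LPS, H for HMW and P for PAM. The control (Ctrl) had no ligand, and combinations are named by their letters. The 8 pairs were PL, PH, LH, PS, PcG, ScG, ZS and ZcG, and the 3 triplets were PLH, PScG and ZScG, which makes 18 groups of 2 libraries. The labels do not say whether the 2 libraries of a group came from separate mice or cultures, so p-values measure only the spread between these libraries, which may be technical.

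Ifit genes encode interferon-induced proteins built from tetratricopeptide repeats. Ifit1 binds viral RNA whose cap lacks a methyl mark that host RNA carries and blocks its translation, Ifit2 limits the spread of several viruses in the mouse, and Ifit3 partners with other family members. These genes are nearly silent in resting cells and are among the most strongly induced targets of type I interferon, which acts on them through interferon-stimulated response elements in their promoters. IRF3 can also switch them on directly. In dendritic cells LPS signals through TLR4 and 3',3'-cGAMP through STING, and both routes lead to IRF3 and interferon-beta. Zymosan is a yeast cell wall preparation, and the depleted form acts mainly through the receptor Dectin-1.

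The core of the interferon-stimulated response element was searched for as GAAA, any 2 bases and GAAA again, on both strands, in the 250 bases before each annotated start in the RefSeq promoter table (GRCm38.p6, the mm10 assembly). It occurred in 2.98% of 32851 such windows. The windows before the starts of Ifit1, Ifit3 and Ifit3b each held 2 matches. Each of the 2 windows for Ifit1bl1 held 1 match, 23 bases before one start and 104 bases before the other. Neither of the 2 windows for Ifit2 held any, which says only that these letters are not in those windows. The stretches with the matches are shown 5′ to 3′ on the plus strand with the matches in capitals, because the peaks at these starts are followed below.
Ifit1, chr19:34640785-34640813: TTTCACTTTCcagtctcagTTTCAGTTTC
Ifit3 (first match), chr19:34583363-34583392: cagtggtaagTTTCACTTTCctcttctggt
Ifit3 (second match), chr19:34583397-34583426: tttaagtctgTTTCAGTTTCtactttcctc
Ifit3b (first match), chr19:34607759-34607788: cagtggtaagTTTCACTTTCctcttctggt
Ifit3b (second match), chr19:34607793-34607822: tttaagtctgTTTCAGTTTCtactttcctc
Ifit2 (no match), chr19:34550444-34550549: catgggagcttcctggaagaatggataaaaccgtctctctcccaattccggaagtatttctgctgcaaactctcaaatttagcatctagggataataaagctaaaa

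The Ifit1 matches lie 104 and 85 bases before its start, the Ifit3 matches 156 and 122 bases, and the Ifit3b matches 188 and 154 bases. The starts used for Ifit3 (34583529) and Ifit3b (34607957) lie inside the gene bodies given below, and so do the matches of these 2 genes. The printed stretches of Ifit3 and Ifit3b were identical, and over the aligned part of their 300-base promoter windows 259 of 274 positions (94.5%) agreed. How reads that fit both copies were assigned is not given in the sources used here, so the values at Ifit3 and Ifit3b could share reads. The Ifit1 matches also lie before a start of Ifit1bl2, 70 and 51 bases away on the other strand. The start peak of Ifit1 overlaps a start of each of these genes. Of the 2 other motifs searched, the GAS motif TTCNNNGAA (7.02% of windows) matched once, before the first Ifit2 start, and the kappa-B motif of GGG, any 2 bases and TTTCC (1.41% of windows) matched before none of the starts in the cluster.

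Ifit2 occupies chr19:34550550-34576534 and Ifit3 chr19:34583119-34588982, both on the plus strand. Ifit1 occupies chr19:34640889-34650009 on the plus strand, inside the long minus-strand gene Ifit1bl1 (chr19:34592888-34662981). Ifit3b (plus strand, chr19:34607530-34613403) and Ifit1bl2 (minus strand, chr19:34617046-34640827) lie between Ifit3 and Ifit1. The annotation used gives gene bodies only, so exons and introns within them were not analysed here. The peaks at the starts are peak 24 for Ifit1 (chr19:34639806-34641558), peak 4 for Ifit2 (chr19:34550370-34551301) and peak 11 for Ifit3 (chr19:34582503-34583877). The peaks over the ends are peak 30 for Ifit1 (chr19:34649632-34654426, 4795 bp), peak 10 for Ifit2 (chr19:34572687-34579247, 6561 bp) and peak 14 for Ifit3 (chr19:34588900-34591147, 2248 bp). They were singled out after their values were seen.

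Total counts ranged from 19097027 to 39977088 per library, of which 8181254 to 21985891 lay outside the mitochondrial genome. Values below are CPM, the counts of a peak scaled to an equal library total outside the mitochondrial genome, with TMM factors. A peak was called higher or lower at a Benjamini-Hochberg adjusted p under 0.05 in edgeR's quasi-likelihood test over 119464 peaks, and ± after a log2 fold change is its standard error. The mitochondrial share of counts was 58.3% to 63.0% in the group means of Ctrl, Z, ZcG, ScG and ZScG and 44.4% to 54.6% in the other 13 groups. For those 13, stimulation and this split of the libraries cannot be told apart in a comparison with Ctrl. By single library, ZS lay on both sides of the split, with 58.1% in library 1 and 51.0% in library 2. ScG library 1 stood at 57.3%. Of 11 dendritic and myeloid marker genes, 10 had a peak at the gene, with 177 to 184 CPM summed in the control libraries and 162 to 219 CPM in the stimulated ones, and Zbtb46 had none. The 4 macrophage markers summed to 88.6 to 88.8 CPM in control and 62.6 to 115 CPM after stimulation. None of the 3 B cell markers had a peak, and of the T cell, NK cell, neutrophil and plasmacytoid markers only Cd4, Klrb1c, S100a8 and Tcf4 did. Cd4 had 3.61 to 4.34 CPM in control and 3.38 to 8.52 CPM after stimulation, and Klrb1c 15 to 16.8 CPM and 7.47 to 18.5 CPM. S100a8 had 17.2 to 20.5 CPM in control and 6.37 to 21.7 CPM after stimulation, and Tcf4 27.7 to 30.5 CPM and 18 to 45.4 CPM. The part of these markers in the results was not tested. In these bulk libraries, more open chromatin per cell and a larger share of cells with open chromatin cannot be told apart.

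In the control, the members of highest accessibility per kilobase were the starts of Ifit3 and Ifit3b, and the gene ends were low. Per kilobase, the mean control level was 19.5 CPM at the Ifit3 start, 17.5 CPM at the Ifit3b start (peak 18), 10.4 CPM at the Ifit2 start and 7.23 CPM at the Ifit1 start. It was 12 CPM at peak 16, at a start of Ifit1bl1, and some peaks within gene bodies were above the Ifit1 start, with 10.1 CPM at peak 32 and 7.99 CPM at peak 21, in Ifit1bl1, and 7.6 CPM at peak 8, in Ifit2. It was 1.87 CPM at the end of Ifit3, 1.06 CPM at the end of Ifit2 and 1.00 CPM at the end of Ifit1. Averaged over all 36 libraries, the same quantity was 5.84 CPM at the end of Ifit2 and 6.44 CPM at the end of Ifit1, whereas the Ifit3 start stood at 24.6 CPM and the Ifit2 start at 10.5 CPM.

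The summed level of the 33 peaks was lowest in P and highest in S. The 2 libraries had 118 and 129 CPM in P, 154 and 155 CPM in Ctrl, 204 and 209 CPM in Z and 246 and 254 CPM in H. They had 317 and 347 CPM in L, 339 and 349 CPM in cG and 356 and 357 CPM in S. P, Ctrl and Z each stood apart from their neighbours in this order with no overlap of libraries. Among the pairs and triplets the means ran from 238 CPM in PH to 311 CPM in ZScG. From cG down to ZS every neighbouring pair of groups overlapped, and 11 of the 17 neighbouring pairs did so in the whole order, so most ranks between ZS and cG are within the spread. The sum is dominated by the wide peaks and by the starts of Ifit3 and Ifit3b.

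The peak over the end of Ifit2 was low without ligand and rose with each ligand other than P. Peak 10 had 8.85 and 5.02 CPM in the control libraries. It had 59.0 and 67.5 CPM after L, 54.8 and 57.0 CPM after S, 51.4 and 50.7 CPM after cG, 27.2 and 35.7 CPM after H and 19.2 and 19.7 CPM after Z. All 10 of these libraries lay above both controls. The log2 fold change was 3.21 ± 0.147 for L (adjusted p = 1.33e-47), 3.03 ± 0.148 for S (2.21e-44), 2.90 ± 0.149 for cG (2.41e-41), 2.19 ± 0.154 for H (8.15e-27) and 1.51 ± 0.168 for Z (7.7e-13). Over the 22 libraries of pairs and triplets the lowest value was 29 CPM, the median 40.7 CPM and the highest 63.1 CPM, all above the controls.

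The peak over the end of Ifit1 also rose with each ligand other than P, and most after S. Peak 30 had 3.82 and 5.79 CPM in control, 50.6 and 51.0 CPM after S, 45.0 and 42.9 CPM after cG and 28.5 and 37.5 CPM after L. It had 19.1 and 23.1 CPM after H, 12.9 and 16.6 CPM after Z and 3.59 and 4.04 CPM after P. The groups other than P did not overlap the control. The log2 fold change was 3.39 ± 0.178 for S (adjusted p = 7.24e-30), 3.18 ± 0.181 for cG (1.88e-27), 2.77 ± 0.182 for L (2.23e-23), 2.11 ± 0.192 for H (6.45e-15) and 1.61 ± 0.209 for Z (9.62e-09). The 22 pair and triplet libraries held 19.7 to 51.6 CPM, with a median of 34.8 CPM.

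Peak 29, just before peak 30 in the body of Ifit1 (chr19:34647011-34649085), had the highest fold change among S, cG and ScG of all members away from the 3 starts. It had 1.31 and 0.579 CPM in control, 12.0 and 10.7 CPM after S and 8.51 and 6.74 CPM after cG, and the log2 fold change was 3.6 ± 0.331 for S (adjusted p = 2.22e-19). It was 1.72 ± 0.411 for Z (adjusted p = 0.00247), a call that ended without control library 2 (1.22, adjusted p = 0.147) and without Z library 2 (1.34, adjusted p = 0.148). The lowest fold change by the same rule was at peak 21 in the shared bodies of Ifit1bl1 and Ifit1bl2 (chr19:34633449-34633921). That peak had 3.61 and 3.96 CPM in control, 1.67 and 1.42 CPM after ScG and 2.03 and 1.78 CPM after S. Its log2 fold change after ScG was -1.28 ± 0.398 (adjusted p = 0.00866), and the adjusted p was 0.0537 without control library 2 and 0.0727 without ScG library 2.

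The starts of the 3 genes moved less, and not alike. At the Ifit1 start, peak 24 had 12.2 and 13.1 CPM in control, 26.9 and 31.2 CPM after S, 27.5 and 25.9 CPM after cG, 21.8 and 23.9 CPM after L, 17.7 and 18.1 CPM after H, 19.8 and 18.8 CPM after Z and 14.1 and 12.6 CPM after P. The libraries of the 5 ligands other than P all exceeded both controls, with log2 fold changes from 1.20 ± 0.142 for S (adjusted p = 9.22e-13) down to 0.49 ± 0.149 for H (adjusted p = 0.0174). The call for H ended when any 1 of the 4 libraries was left out (log2 fold change 0.45 to 0.55), and that for Z (0.60 ± 0.155) ended without control library 1 or Z library 1.

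At the Ifit3 start, peak 11 had 29.8 and 23.8 CPM in control, 43.7 and 41.8 CPM after S, 38.4 and 39.6 CPM after cG, 34.3 and 38.1 CPM after L, 30.0 and 32.4 CPM after H, 31.2 and 31.1 CPM after Z and 24.9 and 19.9 CPM after P. Its log2 fold change was 0.68 ± 0.120 for S (adjusted p = 1.5e-06), 0.54 ± 0.122 for cG (0.000201) and 0.44 ± 0.121 for L (0.00351). Without control library 2 it was 0.39 for cG (adjusted p = 0.0553) and 0.28 for L (adjusted p = 0.196), and without L library 2 it was 0.36 for L (adjusted p = 0.078). For H it was 0.22 ± 0.123 (adjusted p = 0.266) and for Z 0.22 ± 0.128 (adjusted p = 0.355).

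At the Ifit2 start, peak 4 had 8.85 and 10.6 CPM in control, 12.3 and 11.6 CPM after L, 8.11 and 10.8 CPM after S and 11.8 and 12.0 CPM after cG. Over all 36 libraries it stayed between 5.71 and 12.3 CPM. It was called in 0 of the 17 comparisons with control by edgeR and in 0 by DESeq2, and 1 of the 17 had an unadjusted p under 0.05. Under scaling by total counts it was called higher after L, cG and PcG (log2 fold change 0.62 to 0.71), beside a median over all peaks of 0.34 to 0.45 in those comparisons.

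**Figure D1:**
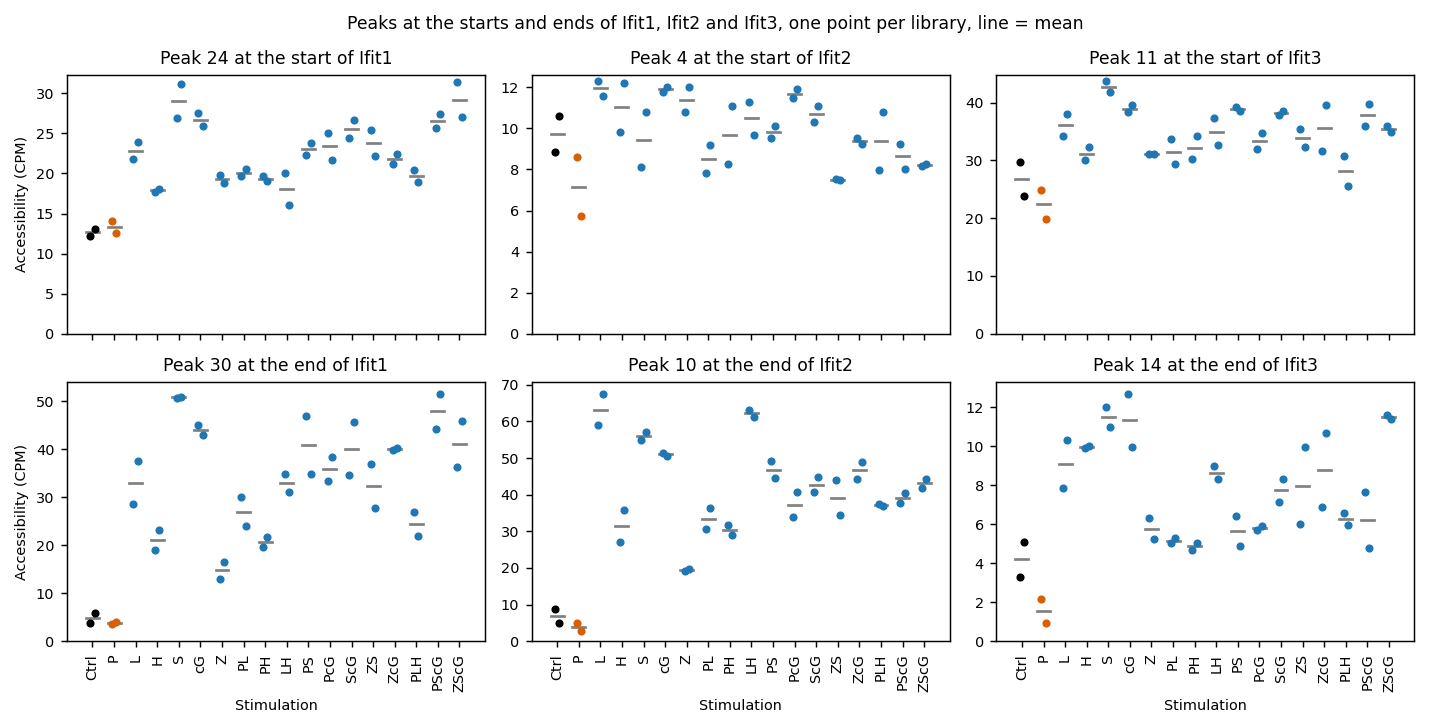
Accessibility in CPM (vertical axes, each starting at 0) of the peaks at the start (upper row) and at the end (lower row) of Ifit1, Ifit2 and Ifit3 in the 18 groups (horizontal axes), with 1 point per library, a grey line at the group mean, control in black and P in orange. The ends of Ifit1 and Ifit2 lie above the control in every group but P, while the Ifit2 start stays between 5.71 and 12.3 CPM.

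Ifit3 differed from its neighbours at the end of the gene. Peak 14 had 3.28 and 5.11 CPM in control, 12.0 and 11 CPM after S, 12.7 and 9.96 CPM after cG, 9.91 and 10.0 CPM after H, 7.84 and 10.3 CPM after L, 6.30 and 5.25 CPM after Z and 2.14 and 0.939 CPM after P. S, cG, H and L did not overlap the control, and neither did Z, by a small margin. The log2 fold change was 1.44 ± 0.248 for S (adjusted p = 6.65e-07), 1.41 ± 0.251 for cG (2.1e-06), 1.23 ± 0.254 for H (0.000183) and 1.11 ± 0.252 for L (0.000294), while Z gave 0.44 ± 0.284 (0.418). The call for L ended without control library 1 (0.83, adjusted p = 0.0508).

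The level at the end of a gene relative to its start was taken as the log2 ratio of the 2 peaks within a library, a measure chosen after the values were seen and given here as a description. For Ifit2 the ratio was 0.00 and -1.06 in the control libraries and 2.73 and 2.39 after S, 2.25 and 2.53 after L and 0.82 and 0.71 after Z. For Ifit1 it was -1.64 and -1.16 in control, 0.91 and 0.70 after S and -0.62 and -0.18 after Z. For Ifit3 it was -3.13 and -2.19 in control, -1.85 and -1.91 after S and -3.45 and -4.20 after P. So the end peak of Ifit2 held more counts than its start peak in each of the 32 libraries outside Ctrl and P, while the end peak of Ifit3 held fewer than its start peak in all 36. These ratios are not corrected for width, and the Ifit2 end peak spans 6561 bp against 932 bp at its start. Per kilobase, the mean at the Ifit2 start stayed above that at its end after L (12.8 against 9.64 CPM) and S (10.1 against 8.52 CPM). Ranked among 356 genes with separate start and end peaks, the change of the ratio after S was the 3rd for Ifit2 (3.09 ± 0.267), the 9th for Ifit1 (2.21 ± 0.248) and the 76th for Ifit3 (0.78 ± 0.313), where the median over all 356 genes was 0.15. Of 30 interferon genes listed with the members, 4 had both peaks, and their ratio changes after S were 2.25 for Ifih1, 2.19 for Cmpk2, 1.89 for Rsad2 and 1.19 for Ifnar2.

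**Figure D2:**
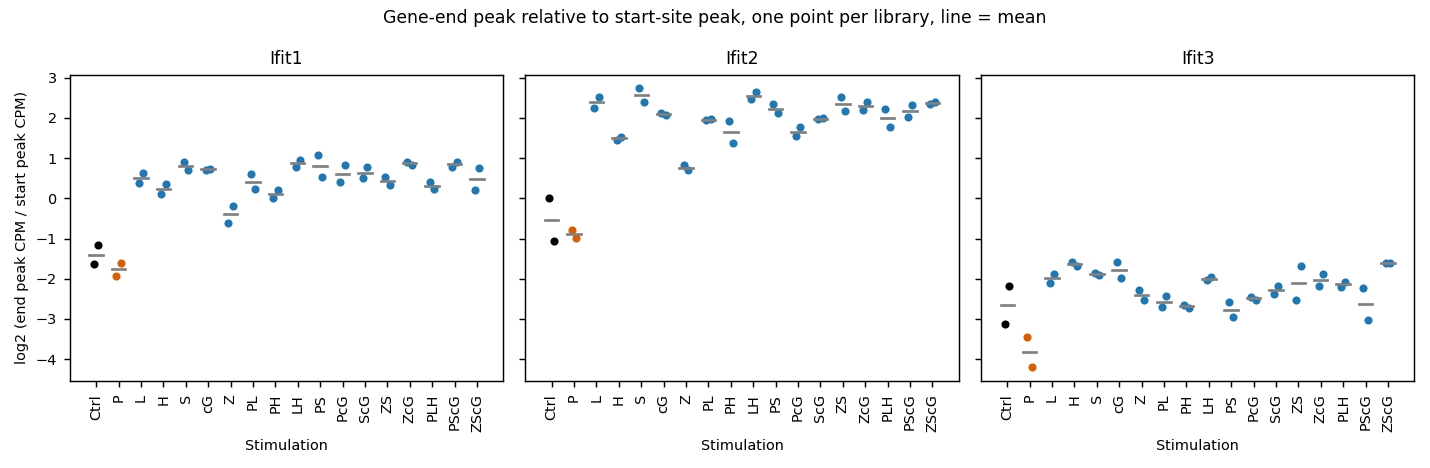
Log2 ratio of the end peak to the start peak (vertical axis) for Ifit1, Ifit2 and Ifit3 in the 18 groups (horizontal axis), with 1 point per library and a grey line at the mean, control in black and P in orange. The ratio of Ifit2 is 0.71 or higher in the 32 libraries outside Ctrl and P, and that of Ifit3 stays below 0 in all 36. Ratios are not corrected for peak width.

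The number of members called against control followed the ligand. After S, 17 of the 33 members were higher, against 14.1% of all peaks tested, and 2 were lower, against 13.8%. After cG, 18 were called and all were higher (11.6% of all peaks), after L, 16 were called and all were higher (11.2%), and after H, 9 were called and all were higher (5.21%). After Z, 7 were higher (4.16%) and 1 was lower (1.75%). The median log2 fold change over the 33 members was 1.07 for S, 0.98 for cG, 0.91 for L, 0.62 for H and 0.23 for Z, and over all peaks tested it lay between 0.00 and 0.03. The count after Z was 4 without Z library 2, and the count after H was 17 under scaling by total counts.

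In the pairs and triplets, 9 to 16 members were called higher. They numbered 15 for LH (11.3% of all peaks), 9 for PL (13.8%), 10 for PH (13.6%), 14 for PS (17.3%) and 13 for PcG (16.8%). Members called higher numbered 13 for ScG (14.4%), 14 for ZS (14.4%) and 14 for ZcG (11.4%). Among the triplets, they numbered 12 for PLH (14.9%), 16 for PScG (19%) and 15 for ZScG (16.2%). Members called lower numbered 2 for ZS (14% of all peaks) and 2 for PScG (18.1%). They numbered 1 each for PH (12.8%), PS (16.2%), ScG (13.3%), ZcG (10.2%) and ZScG (16.1%). All members called for PL, LH, PcG and PLH were higher. The count for LH was 9 without control library 1, and under scaling by total counts the counts were 16 for PL and 20 for PcG. All 17 comparisons use the same 2 control libraries.

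The comparisons of Z, ScG, ZcG and ZScG with control stayed within the group of libraries of high mitochondrial share. In these, 7 members were higher after Z, 13 after ScG, 14 after ZcG and 15 after ZScG. The end of Ifit2 gave log2 fold changes of 2.64 ± 0.153 for ScG (adjusted p = 4.97e-36), 2.77 ± 0.153 for ZcG (4.43e-38) and 2.65 ± 0.155 for ZScG (1.62e-35), beside 3.03 for S and 2.90 for cG across the split. The end of Ifit1 gave 3.04 ± 0.184 for ScG, 3.04 ± 0.186 for ZcG and 3.07 ± 0.186 for ZScG.

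Along the cluster, the called members fell into stretches. Peaks 6, 8 and 10 in the body and end of Ifit2, the Ifit1 start (peak 24) and peaks 28, 29 and 30 in the body and end of Ifit1 were each called higher in 16 of 17 comparisons, all but P. The start of Ifit3b (peak 18) was called in 12 and the start of Ifit3 in 11. At the Ifit3b start the libraries had 29.3 and 35.6 CPM in control and 54.9 and 51.1 CPM after S, a log2 fold change of 0.70 ± 0.110 (adjusted p = 4.82e-08). Peak 16 at a start of Ifit1bl1 moved the other way and was called lower in 7 comparisons, from a mean of 6.18 CPM in control, its highest group. Under scaling by total counts it was called in 3, and after thinning to one depth the calls for S, PH and PS ended. The outermost members on the Ifit1 side, peaks 31, 32 and 33, were called in none, as were peaks 4, 13, 22 and 25. For these 7 peaks DESeq2 called none either, and an unadjusted p under 0.05 occurred in 0 to 5 of the 17 comparisons. Peaks 20, 25 and 26, each 200 bp wide, were at 0 counts in 2 to 5 libraries, and their fold changes carry little information.

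**Figure D3:**
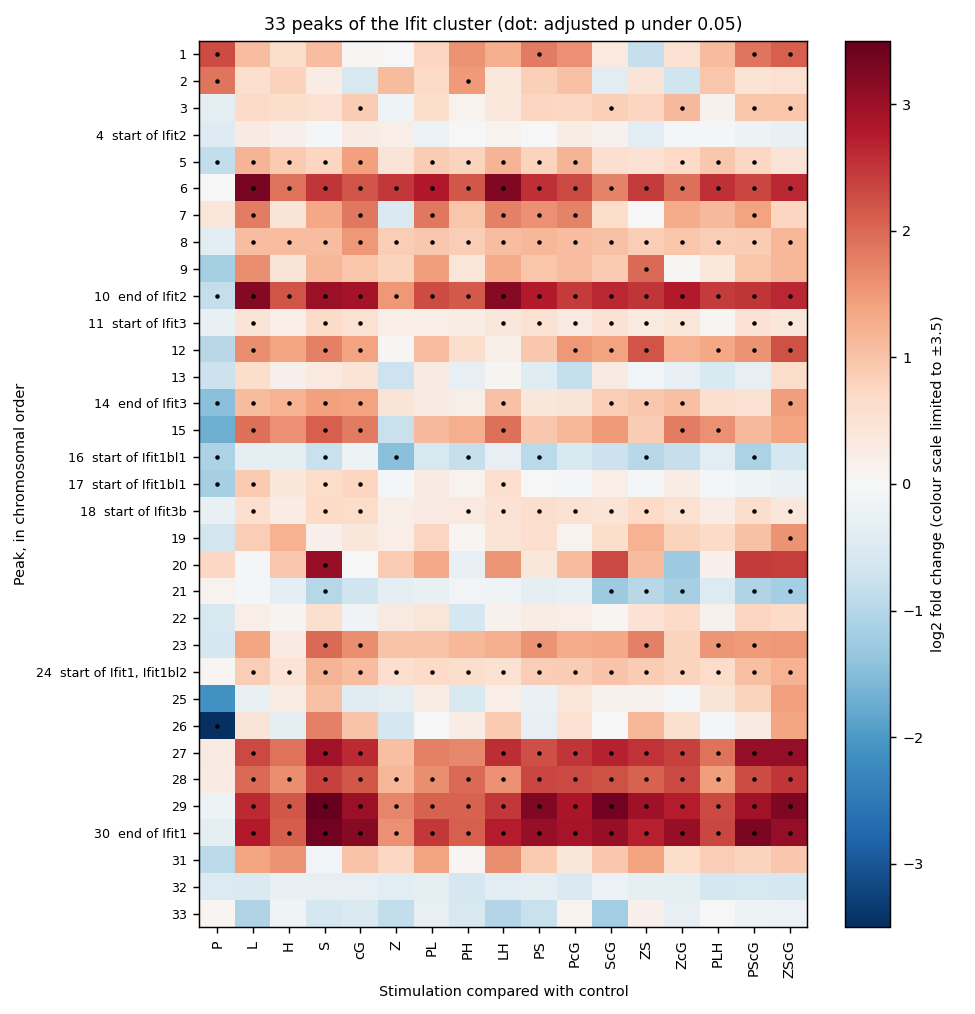
Fitted log2 fold change against control (colour, limited to 3.5 in either direction) of the 33 peaks in chromosomal order (vertical axis) in the 17 stimulations (horizontal axis), with a dot where the adjusted p is under 0.05. Peaks 6, 8, 10, 24, 28, 29 and 30 are called higher in 16 of the 17 columns, and the P column holds 2 higher and 6 lower calls.

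**Figure D4:**
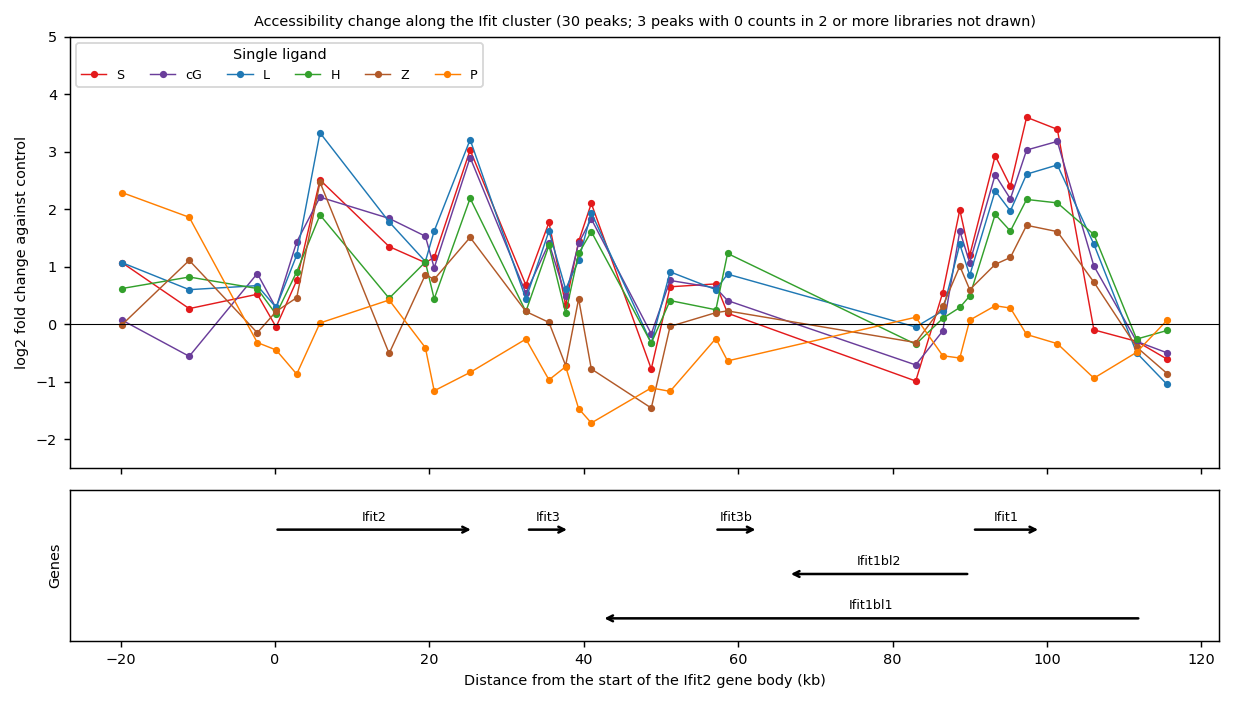
Fitted log2 fold change against control (upper panel, vertical axis) of 30 peaks by distance from the start of the Ifit2 gene body in kb (horizontal axis) for the 6 single ligands, with gene bodies and their direction below, and peaks 20, 25 and 26 left out. S, cG, L, H and Z rise together over the end of Ifit2 and over the body and end of Ifit1, where S reaches 3.6, while P stays near or below 0 from the Ifit2 start onwards.

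After P, parts of the cluster were lower than in control. Here 2 members were higher (11.1% of all peaks) and 6 were lower (9.45%), and the median over the 33 members was -0.45 on the log2 scale, against -0.04 over all peaks. The 6 were peaks 5, 10, 14, 16, 17 and 26. The end of Ifit3 fell to 2.14 and 0.939 CPM, a log2 fold change of -1.47 ± 0.326 (adjusted p = 0.000209). The end of Ifit2 fell to 4.88 and 2.82 CPM, just below the lower control library, a log2 fold change of -0.84 ± 0.204 (adjusted p = 0.000828). The start of Ifit1 had a log2 fold change of 0.07 ± 0.154 (adjusted p = 0.803) and the end of Ifit1 -0.34 ± 0.245 (adjusted p = 0.35). Peak 26 was at 0 counts in both P libraries, with 2 and 5 counts in control, so its call rests on very few reads.

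At the ends of Ifit2 and Ifit3 the calls after P rested on single libraries. At the end of Ifit2 the log2 fold change was -0.39 without control library 1 (adjusted p = 0.348) and -0.49 without P library 2 (adjusted p = 0.164), and at the end of Ifit3 it was -1.10 without control library 2 (adjusted p = 0.058) and -0.98 without P library 2 (adjusted p = 0.0679). Under scaling by total counts the median over all peaks after P was 0.28, the end of Ifit2 stood at -0.51 (adjusted p = 0.0544) and 3 members were called lower. The 2 members called higher after P were peaks 1 and 2, at the Ifit2 side of the window and outside any gene body. Peak 1 had 2 and 5 counts in control and 22 and 26 counts after P, and its call ended without control library 1 or P library 2.

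P changed accessibility at other genes, as did the other ligands. Of 15 inflammatory genes listed for comparison, 12 had a peak at the start site and 3 were read from a peak in or within 1 kb of the gene body, and Ccl3 and Ccl4 shared 1 peak, which leaves 14 peaks. Of these 14 peaks, 11 were higher after P (11.1% of all peaks), 11 after cG (11.6%), 10 after S (14.1%) and 10 after ScG (14.4%). After L 7 were higher (11.2%), after H 6 (5.21%) and after Z 5 (4.16%). Tnf, a central inflammatory cytokine, had a log2 fold change of 1.27 after P (adjusted p = 6.24e-21) and 1.62 after S (1.28e-30), and Il6, which encodes interleukin-6, one of 1.36 after P (2.3e-12) and 1.63 after L (2.69e-17). Of the 28 interferon genes with a peak at the start or body, the 1 called there after P was lower (9.45% of all peaks), namely Cmpk2 (-0.40, adjusted p = 0.0114), a kinase gene next to Rsad2. At separate end peaks, Rsad2 (0.30, adjusted p = 0.0262) and Ifnar2 (0.94, 2.15e-09) were higher after P and Cmpk2 (-1.04, 0.0392) was lower. The median log2 fold change after P was 1.00 over the inflammatory list and -0.01 over the interferon list. After S these medians were 0.40 and 0.54, and after cG 0.39 and 0.70.

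Under the other ligands, genes of the interferon list were higher as well. Of its 28 genes, 22 had a peak at the start site and 6 one in or within 1 kb of the body. At these peaks 19 were higher after S (14.1% of all peaks), 22 after cG (11.6%) and 20 after L (11.2%). After H 9 were higher (5.21%), after Z 6 (4.16%) and after ScG 17 (14.4%). Ifnb1, which encodes interferon-beta, had a log2 fold change of 2.56 after S (adjusted p = 2.28e-11) and 1.68 after cG (adjusted p = 4.85e-05), but 0.45 after L (adjusted p = 0.419) and 0.63 after H (adjusted p = 0.3). Oasl1, an interferon-induced regulator of translation, reached 2.05 after S, 2.21 after cG and 2.06 after L. Isg15, a ubiquitin-like modifier, reached 1.49 after S and 0.87 after Z. The receptor genes Ifnar1 and Ifnar2 and the adaptor gene Mavs were at 0.17, -0.18 and 0.13 after S, with adjusted p-values from 0.27 to 0.552. These values hold for the start peaks only, as the separate end peak of Ifnar2 was higher after S (1.02, adjusted p = 2.72e-11).

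Compared with each other, S and cG differed at 1 of the 33 members, which was lower after S (0.22% of all peaks), and 5 members had an unadjusted p under 0.05. The 1 member was peak 5 in the Ifit2 body, with 10.3 and 10.5 CPM after S and 15.2 and 17.9 CPM after cG. Its call ended under scaling by total counts (adjusted p = 0.0675), after thinning to one depth (0.165) and in the DESeq2 Wald test (0.0579). L exceeded H at 4 members (2.3% of all peaks), among them the end of Ifit2 (difference 1.02 ± 0.116, adjusted p = 3.09e-12) and the end of Ifit1 (0.66 ± 0.140, adjusted p = 0.00114). After thinning to one depth, 2 of these 4 calls ended. L stayed below S at 3 members (5.05% of all peaks), among them peak 29 (-0.99 ± 0.230, adjusted p = 0.000906) and the end of Ifit1 (-0.62 ± 0.131, adjusted p = 0.000419). Against P, where both groups share the low mitochondrial range, 22 members were higher after S (11.6% of all peaks), 24 after cG (11.1%), 23 after L (5.19%) and 18 after H (4.96%). Members lower than in P numbered 2 after S (12.9% of all peaks), 2 after cG (12.7%) and 1 after L (5.87%), with peak 2 among them each time. In that comparison the end of Ifit2 was 14.6-fold higher after S and 16.5-fold higher after L.

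With P added to another ligand, the cluster stayed above its level in P alone and in part fell below that of the other ligand. The summed level of the 33 peaks was 249 and 258 CPM in PL against 317 and 347 CPM in L, with no overlap. It was 283 and 294 CPM in PcG against 339 and 349 CPM in cG, and 296 and 320 CPM in PS against 356 and 357 CPM in S, again with no overlap. A lower sum was also seen in pairs without P. The sum was 276 and 293 CPM in ZS and 292 and 307 CPM in ScG, below both S libraries. In ZcG it was 281 and 313 CPM, below both cG libraries. ScG against S and ZcG against cG cross the split in mitochondrial share, so the added ligand and the split cannot be told apart there. Members called lower numbered 3 in ZS against S (1% of all peaks) and 2 in ZcG against cG (1.04%). Under scaling by total counts these gained 3 in ZS and 9 in ZcG. The end of Ifit2 had 49.1 and 44.5 CPM in PS, 33.9 and 40.7 CPM in PcG, 30.5 and 36.4 CPM in PL and 31.8 and 29 CPM in PH. Against P alone, 19 members were higher in PS (9.36% of all peaks), 20 in PcG (7.39%), 17 in PL (4.17%) and 13 in PH (1.7%). Lower than in P alone was 1 member in PS (8.78% of all peaks) and 1 in PL (4.29%). Against the other ligand alone, members called lower numbered 2 in PS (0.492% of all peaks), 4 in PcG (3.52%), 1 in PL (0.362%) and 1 in PH (2.27%). In PcG, 1 member was called higher than in cG (5.59% of all peaks). At an unadjusted p under 0.05 there were 9 members in PS, 7 in PL and 3 in PH, all below the other ligand, and 9 in PcG, of which 2 were above it. The count lower than in S in PS was 1 under scaling by total counts, after thinning and with DESeq2, and that lower than in L in PL gained 3 under scaling by total counts. The 1 lower in PL than in L was the end of Ifit2 (-0.93 ± 0.117, adjusted p = 3.03e-09). The 1 lower in PH than in H was the end of Ifit3 (-1.03 ± 0.231, adjusted p = 0.000697). The end of Ifit3 was also lower in PS than in S (-1.04 ± 0.219, adjusted p = 0.000523) and in PcG than in cG (-0.96 ± 0.223, adjusted p = 0.00126).

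Pairs of ligands that each opened the cluster gave less than the sum of their effects. The interaction of a pair was its log2 fold change minus those of its 2 single ligands, so that 0 means additive on the log2 scale. For ScG it sets ScG and Ctrl, of high mitochondrial share, against S and cG, of low share. For LH, ZcG and the pairs with P the shares do not balance either, while for ZS they do by group mean. Where they do not balance, departure from additivity and the split in mitochondrial share cannot be told apart. It was called negative at 16 members for ScG (7.52% of all peaks), 10 for LH (2.62%), 8 for ZS (2.6%) and 7 for ZcG (1.74%), and every called member was negative. At the end of Ifit2 it was -3.29 ± 0.191 for ScG (adjusted p = 3.33e-35), where S, cG and ScG each gave log2 fold changes of 3.03, 2.90 and 2.64. It was -2.21 ± 0.191 for LH (adjusted p = 4.48e-19), -2.02 ± 0.205 for ZS (8.74e-15) and -1.63 ± 0.206 for ZcG (9.4e-10). At the end of Ifit1 it was -3.52 ± 0.228 for ScG (adjusted p = 3.64e-23) and -2.12 ± 0.237 for LH (2.11e-10).

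At the starts the same interactions were smaller. That of ScG was -1.26 ± 0.195 at the Ifit1 start (adjusted p = 1e-07), -0.71 ± 0.168 at the Ifit3 start (0.000935) and -0.86 ± 0.155 at the Ifit3b start (5.69e-06), and the Ifit2 start was not called. These 4 pairs share control libraries, and ScG, ZS and ZcG also share S, cG and Z, so their values are not independent. ScG against S held 0 called members by edgeR and by DESeq2 (0.477% of all peaks were higher and 0.102% lower), with 6 at an unadjusted p under 0.05, and ScG against cG held 1 lower (1.92% of all peaks). Both comparisons cross the split in mitochondrial share. Under scaling by total counts 7 members were called lower in ScG than in S, among them the ends of Ifit2 (-0.68, adjusted p = 0.000142), Ifit1 (-0.64, 0.00109) and Ifit3 (-0.87, 0.0135), and 7 more were called lower than in cG. Without control library 2 the counts were 5 for ZS and 4 for ZcG. With all libraries thinned to one depth the count for ZS was 5, and under scaling by total counts that for ZcG was 12.

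For the 4 pairs with P no interaction was called at any of the 33 members, by edgeR or by DESeq2, whereas calls were made elsewhere. Of all peaks, 2.57% were called positive and 4.18% negative for PL, 0.471% and 1.08% for PH, 1.68% and 2.9% for PS, and 1.09% and 2.17% for PcG. An unadjusted p under 0.05 was reached by 4 members for PL, 6 for PH, 6 for PS and 2 for PcG. At the end of Ifit2 the interaction of PH was 0.80 and became called without control library 2 (1.17, adjusted p = 0.00458), without P library 1 (1.24, adjusted p = 0.00534) and without H library 2 (1.00, adjusted p = 0.0177). That of PS was 0.58 and became called without control library 2 (0.95, adjusted p = 0.0142) and without P library 1 (1.02, adjusted p = 0.0166). Under scaling by total counts the PL interaction was called negative at peaks 1, 2, 18 and 24 (-3.04, -2.22, -0.51 and -0.69) and that of PS at peak 24 (-0.69, adjusted p = 0.0223).

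The interaction of S with cG and of L with H was also taken on the background of P, as the triplet minus the 2 pairs with P plus P alone, an alternative chosen after the data were seen. It uses libraries of low mitochondrial share only and no control library. For S and cG, 13 members were called, all negative (2.66% of all peaks), and for L and H, 10 were called, all negative (0.425%). At the end of Ifit2 the value was -3.53 ± 0.197 for S and cG (adjusted p = 3.17e-37) and -2.82 ± 0.202 for L and H (adjusted p = 1.33e-25). At the end of Ifit1 it was -2.98 ± 0.224 (adjusted p = 7.23e-19) and -2.59 ± 0.236 (adjusted p = 7.32e-14). Over both contrasts 23 calls were made, and the 10 members called for L and H were all among the 13 called for S and cG. Fewer calls were made without P library 2.

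**Figure D5:**
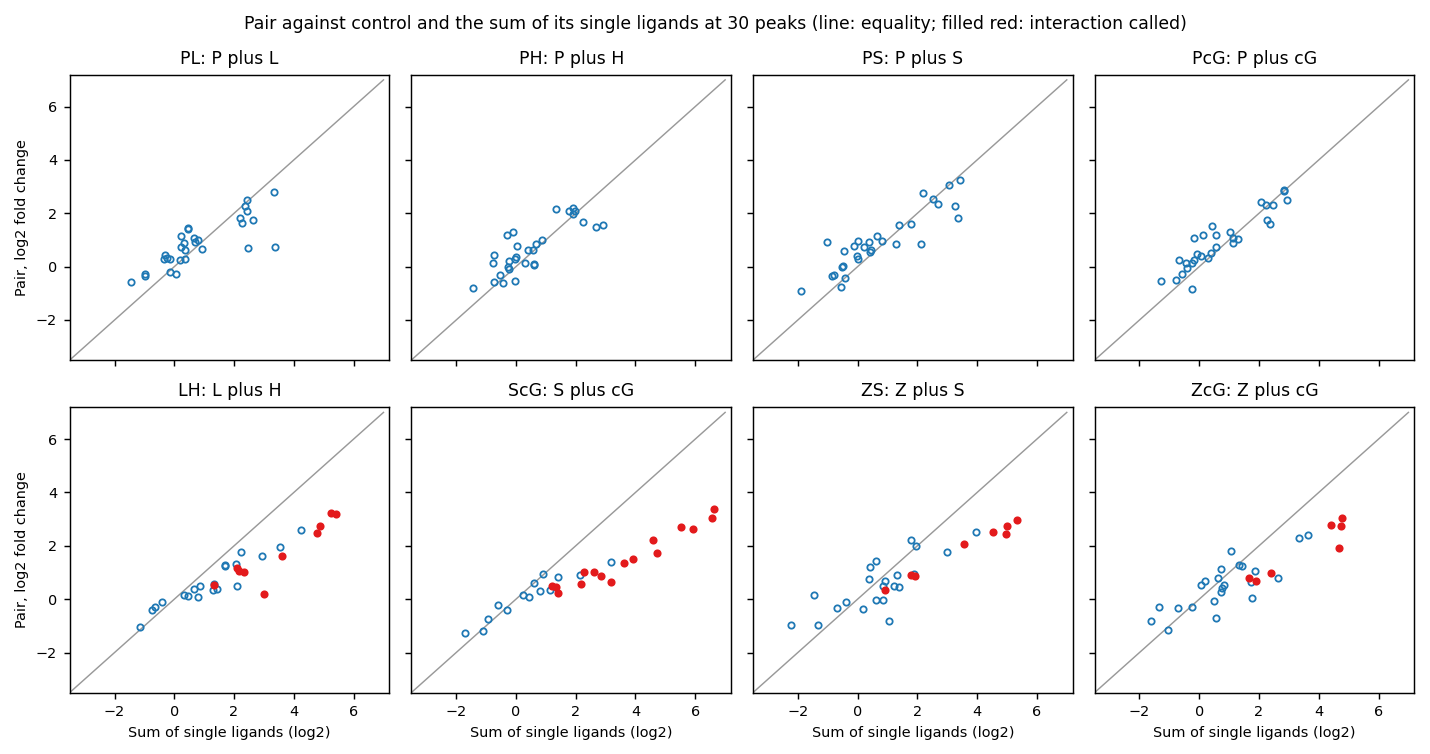
Log2 fold change of each of the 8 pairs against control (vertical axes) and the sum of the log2 fold changes of its 2 single ligands (horizontal axes) at 30 of the 33 peaks, without peaks 20, 25 and 26, with the line of equality and filled red points where the interaction was called. In the pairs without P the called points lie below the line, and no point is filled in the 4 pairs with P.

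The triplets added little beyond their pairs. Of the 9 comparisons of a triplet with one of its pairs, PLH against LH had 1 member called, the end of Ifit2, lower in PLH (-0.74 ± 0.114, adjusted p = 1.09e-05, 0.203% of all peaks called lower). It had 37.5 and 37.0 CPM in PLH and 63.1 and 61.3 CPM in LH, with no overlap. The other 8 comparisons held 0 calls by edgeR, with 0 to 7 members at an unadjusted p under 0.05, and DESeq2 called 1 member in ZScG against ZcG. Of all peaks, 0.000837% were called in PLH against PL and 0.248% in PLH against PH. The shares were 0.602% in PScG against PS, 0.412% against PcG and 4.53% against ScG, and 0.0586% in ZScG against ZS, 0.772% against ScG and 2.79% against ZcG. The triplet interaction, the part of a triplet's log2 fold change that its single ligands and pair interactions do not sum to, was called positive at 7 members for ZScG (0.974% of all peaks). It was 2.16 ± 0.267 at the end of Ifit2 (adjusted p = 9.87e-10), 2.43 ± 0.319 at the end of Ifit1 (1.2e-07) and 1.39 ± 0.281 at the Ifit1 start (0.000908). The level of the end of Ifit2 in ZScG, 41.9 and 44.4 CPM, was within the range of ZS, ZcG and ScG (34.5 to 49.0 CPM). In none of the 3 triplet interactions do the groups of high and low mitochondrial share balance. The ligands and that split cannot be told apart in them. For PLH (0.783% of all peaks called) and PScG (2%) 0 members were called by edgeR or DESeq2, with 4 and 2 at an unadjusted p under 0.05. Under scaling by total counts, 13 calls were positive over the 3 triplet interactions, 2 of them for PScG, and 2 members were called higher in PScG than in ScG.

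Outside the cluster, the peaks at protein-coding genes whose 18 group means were most like the mean profile of the 3 starts were ranked among 22199 peaks by Pearson's r, as a description over groups that share libraries and depth. The first was at Rsad2, which encodes the antiviral enzyme viperin (r = 0.917), followed by a peak at Sp110 and Sp140 (0.911). The 6 that followed were at Wdr7, Slc8b1, Mical3, Gm4951, Rab31 and Slfn9 (0.905 to 0.89). For the mean profile of the 3 ends the order was Il15, which encodes interleukin-15 (0.967), Pcca, an enzyme gene of propionate breakdown (0.966), Gm4951 (0.953), Irgm1, an interferon-inducible GTPase (0.947), Rab22a (0.946), Cmpk2 (0.945), Wdr7 (0.944) and Misp (0.941). Among the members, the start of Ifit3b followed the profile of the ends with r = 0.909 and the start of Ifit2 with r = 0.385.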

How the data were processed

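ATAC-seq was measured in 36 libraries, 2 for each of 18 groups. The values the authors deposited are unnormalized read counts, whole numbers for each library at each peak. Per the submitters' processing notes, Bowtie2 2.2.9, MACS2 (listed with version 1.4), bedtools and featureCounts were used with the mm10 build. Whether duplicates were removed, read ends were shifted for the transposase, or peaks were called on pooled libraries is not given in the sources used here. The labels name no molecular identifiers, so precision from depth covers counting error only. All 36 count columns were matched to libraries by name, and no other count column was used.

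The 1 peak spanning the mitochondrial genome was left out of library sizes and tests, and 286 peaks of low count were removed (filterByExpr, minimum count 10). The remaining 119464 peaks were fitted together in edgeR 4.0.16 (R 4.3.3) with TMM factors, 1 coefficient per group, a trended dispersion and robust quasi-likelihood tests on 18 residual degrees of freedom before moderation. The Benjamini-Hochberg adjustment ran over all tested peaks within each of 63 contrasts. The ratio of end to start used log2 CPM with a prior count of 2 and limma 3.58.1 across 356 genes. Libraries of 1 group correlated at r = 0.901 to 0.958 in log2 CPM across peaks, and their counts differed by more than sampling noise (chi-square per degree of freedom 2.08 to 3.31), so each was counted as 1 library. The tests were checked on simulated data with known changes, where the smaller changes were mostly not called.

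The members, the peaks described library by library and the gene lists were chosen with earlier results of these data known. Described in full were the peak at the start of each gene and, elsewhere, the members of highest and lowest fold change among S, cG and ScG. The peaks over the gene ends were added after their values were seen. Mx1 and Mx2 of the interferon list are not analysed here. Alternatives were DESeq2 1.42.0 size factors and its Wald test, scaling by total counts, no filter on low counts, the mitochondrial peak kept, libraries thinned to one depth, a term for the replicate number, a fit of only the groups compared, and each library left out in turn, with the lone library of its group assumed to vary like the others.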

Additional observations from a re-analysis of the deposited data

Results flagged for a closer look

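The effect of a ligand on the cluster differed with the presence of a second ligand, by the interaction term of edgeR's test at an adjusted p under 0.05. Between S and cG this held at 16 of the 33 members, between L and H at 10, between Z and S at 8 and between Z and cG at 7, and at each the log2 fold change for a ligand was lower when the other ligand was present. With P in place of the control, it held for S and cG at 13 members and for L and H at 10, again lower. The members are neighbouring peaks, and the contrasts share libraries, so these counts are not independent. For S with cG, L with H and Z with cG against control, groups of high and low mitochondrial share do not balance in the interaction. In these the ligands and that split cannot be told apart.

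Among the triplets, the ZScG interaction was called at 7 members, all positive. At these members the pair interactions of S, cG and Z differed with the third ligand, by a test of that difference itself. Groups of high and low mitochondrial share do not balance in this contrast, so the ligands and that split cannot be told apart. A positive value also follows by arithmetic where single ligands, pairs and triplet all stand at a like level above control.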

How the results depend on the processing

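Of 267 calls at peaks 4, 10, 11, 14, 18, 21, 24, 28, 29 and 30, 0 reversed in direction under any alternative run. Calls at the other members are not in this count, among them peaks 1, 5, 16 and 26, where calls ended under some alternatives. Calls kept numbered 264 with DESeq2 size factors, 264 with the DESeq2 Wald test, 264 with the mitochondrial peak kept, 267 without the filter on low counts, 254 under scaling by total counts and 250 after thinning to one depth. Fits of only the groups compared kept 116 of 120, and leaving out 1 library kept 1096 of 1284. Scaling by total counts moved the median over all peaks by -0.63 to 0.53 on the log2 scale, and members called higher became 17 for H, 16 for PL and 20 for PcG, with 13 calls over the triplet interactions. Under the same scaling, calls lower than control over all stimulations went from 18 to 9, and calls lower in a pair than in its single ligand from 18 to 43 (11 after thinning). Thinned, P had 1 member called higher. With 1 library left out, members called higher numbered 1 to 2 for P, 4 to 6 for Z and 9 to 14 for LH, and the interactions on P 14 to 22. The cause was not tested, beyond the shift of the median and the smaller number of libraries or reads.

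With the replicate number as a block, all 267 calls were kept, and the calls of a member higher than control numbered 214 over the 17 stimulations, as without it. No pairing by number was detected, as the deviations of same-numbered libraries correlated at -0.04 to 0.03 over 153 pairs of groups, of which 0 exceeded 0.1. Counting noise enters these deviations, so a weak pairing could be missed. Depth limits the narrow members most: peaks 20, 25 and 26 were at 0 counts in 2 to 5 libraries, so their fold changes are imprecise, and a member not called may still have changed.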
